A study of Sus scrofa with 12 samples.

Results

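Fibronectin and 7 matricellular proteins of the thrombospondin, tenascin, SPARC and periostin families were followed in cultured arterial endothelial cells (ECs) under different levels of wall shear stress (WSS). The genes are FN1, THBS1, THBS2, TNC, SPARC, SPARCL1, SPOCK1 and POSTN, and each was found in the deposited table by matching the pig Ensembl gene identifier to its symbol, which gave 8 of the 21153 genes counted. Their CPM (reads on a gene, scaled to the total of gene counts in the library) and their share of all gene counts were compared within a donor, at 2 vs. 30 and at 80 vs. 30 dyne/cm2. These 8 genes were chosen with the values of both comparisons in view. The values of these comparisons are therefore given as a description. Where one of the 8 is said to pass the thresholds in them, this states the output of the fit over all genes. It is not a test of that gene.

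Primary ECs from the arteries of 3 slaughterhouse pigs (donors PecA, PecC and PecD) were exposed to laminar flow for 48 h before their RNA was sequenced. From each pig came a culture at 2 dyne/cm2 (low aneurysmal WSS), a culture at 80 dyne/cm2 (supra-high aneurysmal WSS) and 2 cultures at 30 dyne/cm2 (physiological WSS), here named set 1 and set 2, which makes 12 libraries. The labels do not say which set belongs to which comparison, and 2 dyne/cm2 was compared with set 1 and 80 dyne/cm2 with set 2. All cultures shared a gelatin coating and a medium with fetal calf serum and heparin, and the flow was constant rather than pulsatile. In the labels the cells are aortic and in the methods they come from coronary arteries, and the labels describe another flow slide and seeding density for 80 dyne/cm2 and its controls, which would then differ between sets 1 and 2. The slide cannot be told apart from the set. Between 29606854 and 41058902 counts fell on genes per library (median 33871914).

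Fibronectin is a large glycoprotein that cells secrete and assemble into fibrils through integrins, chiefly the fibronectin receptor made of the integrin subunits encoded by ITGA5 and ITGB1. It is known for accumulating beneath arterial endothelium where flow is disturbed. Matricellular proteins are also secreted into the matrix, but they act mainly by binding matrix molecules, growth factors and cell receptors rather than as building blocks. Thrombospondins restrain the growth of new vessels, tenascin-C and the SPARC family weaken adhesion of cells to their matrix, and periostin is best known from fibroblasts and injured vessel walls.

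On the Sscrofa11.1 assembly with RefSeq positions, FN1 (ENSSSCG00000016174) lies at chr15:117658158-117737145, THBS1 (ENSSSCG00000004789) at chr1:131728781-131746098 and THBS2 (ENSSSCG00000004012) at chr1:854473-882467. TNC (ENSSSCG00000005494) lies at chr1:255533235-255630381, SPARC (ENSSSCG00000017082) at chr16:71368164-71380972 and SPARCL1 (ENSSSCG00000009222) at chr8:131386804-131431427. SPOCK1 (ENSSSCG00000032423) lies at chr2:139018177-139523601 and POSTN (ENSSSCG00000009361) at chr11:13225183-13258973. The counts cover the merged exons of each gene, so splice forms such as those of FN1 and TNC were not separated.

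The 8 genes together took a share of the RNA that was ordered by shear stress. The 8 genes held 11.8, 9.01 and 15.7% of all gene counts at 2 dyne/cm2 in PecA, PecC and PecD, in that order. The shares were 5.66, 5.90 and 5.12% in set 1 and 8.47, 6.73 and 5.65% in set 2 at 30 dyne/cm2. The lowest shares, 2.65, 3.55 and 3.30%, were those at 80 dyne/cm2. Every culture at 2 dyne/cm2 was above every culture at 30 dyne/cm2, and every culture at 80 dyne/cm2 was below. In every library FN1 and THBS1 together made up most of this share. TNC and SPARC did not have this order. Their mean shares were 0.653 and 0.255% at 2 dyne/cm2, 0.928 and 0.307% in set 1 and 0.712 and 0.324% in set 2. At 80 dyne/cm2 they were 0.962 and 0.292%. FN1 had more reads than any other gene in all 9 libraries at 2 and 30 dyne/cm2, and it was at rank 2 or 3 in the libraries at 80 dyne/cm2. THBS1 was at rank 2 in the 3 libraries at 2 dyne/cm2. A gene's share of reads grows with the length of its transcript, and no transcript lengths were at hand, so levels are compared between conditions and donors and not between genes. Counting error is small beside these differences, since the 95% exact binomial interval of the FN1 share reached at most 0.0109 percentage points to either side.

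**Figure D1:**
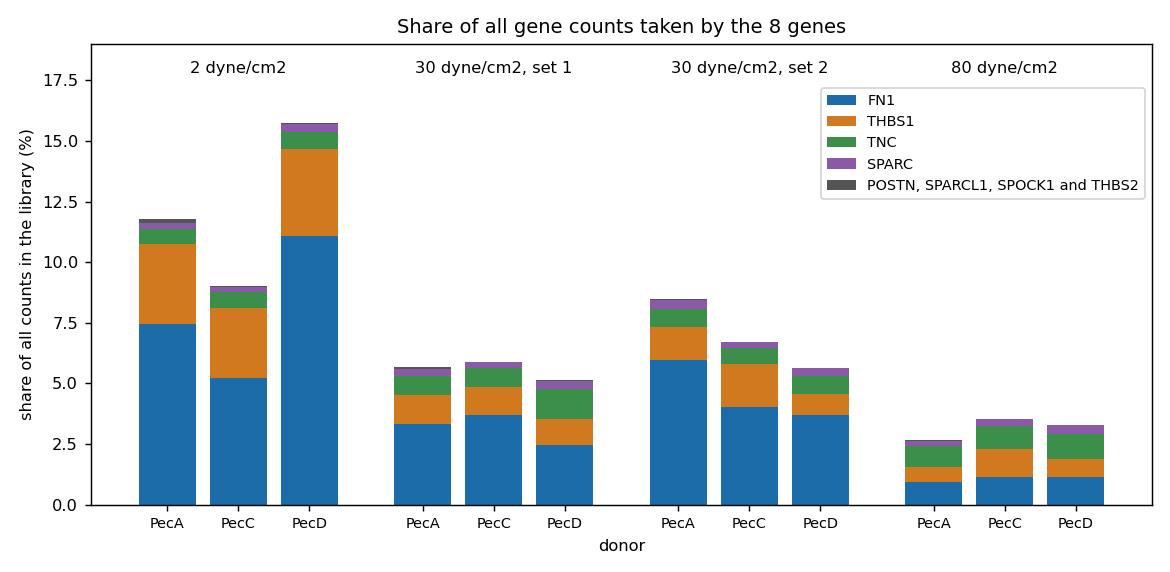
Share of all gene counts (%) taken by FN1, THBS1, TNC, SPARC and the other 4 genes together, as stacked bars for each donor, grouped by condition. The bars reach 9.01 to 15.7% at 2 dyne/cm2, 5.12 to 8.47% at 30 dyne/cm2 and 2.65 to 3.55% at 80 dyne/cm2.

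FN1, which encodes fibronectin, was highest at 2 and lowest at 80 dyne/cm2 in each donor. At 2 dyne/cm2 its level was 74535 CPM in PecA, 52251 in PecC and 110963 in PecD, against 33483, 37082 and 24715 CPM in set 1. The groups did not overlap, and the ratio within a donor was 2.23 in PecA, 1.41 in PecC and 4.49 in PecD. The fitted log2 fold change was 1.28 ± 0.43 (SE, n = 3 donors), and the control level in set 1 was 31760 ± 6361 CPM (mean ± SD, n = 3). Supra-high WSS came with 9508, 11438 and 11541 CPM, against 59826, 40323 and 36967 CPM in set 2. FN1 was thus 6.29-fold lower in PecA, 3.53-fold lower in PecC and 3.20-fold lower in PecD, and again the groups did not overlap. The log2 fold change was -2.01 ± 0.28 (SE, n = 3 donors). The 3 cultures at 80 dyne/cm2 were closer to one another (SD 1146 CPM) than the 3 at 2 dyne/cm2 (SD 29639 CPM). Leaving PecD out took the log2 fold change at 2 dyne/cm2 to 0.82, and comparing with set 2 in place of set 1 took it to 0.78.

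THBS1 encodes thrombospondin-1, which inhibits new vessel growth and can activate latent TGF-β. Its levels at 2 dyne/cm2 were 33158, 28861 and 35906 CPM in PecA, PecC and PecD, and those in set 1 were 11779, 11581 and 10504 CPM. The low-shear cultures were all above the controls, by 2.82-, 2.49- and 3.42-fold. With a log2 fold change of 1.54 ± 0.23 (SE, n = 3 donors), THBS1 had the smallest spread between donors among the 5 genes that were higher in every donor (SD of the log2 ratio 0.23, n = 3). Under 80 dyne/cm2 the levels were 5954, 11339.5 and 7392 CPM, against 13579, 17776 and 8478 CPM in set 2. Each donor was lower at 80 dyne/cm2, by 2.28-, 1.57- and 1.15-fold, but the groups overlapped because PecC at 80 dyne/cm2 was above PecD in set 2. The log2 fold change was -0.65 ± 0.24 (SE, n = 3 donors), and -0.34 without PecA.

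THBS2, the gene of the related thrombospondin-2, was a low-abundance transcript that followed the donor rather than the shear stress. At 2 dyne/cm2 it had 1.23, 4.56 and 9.66 CPM in PecA, PecC and PecD, and in set 1 it had 0.706, 5.88 and 9.82 CPM. In set 2 the levels were 0.987, 1.87 and 13.7 CPM, and at 80 dyne/cm2 they were 0.388, 2.81 and 8.31 CPM. PecA was lowest and PecD highest in all 4 conditions. The log2 fold changes were 0.08 ± 0.25 at 2 dyne/cm2 and -0.34 ± 0.33 at 80 dyne/cm2 (SE, n = 3 donors), and the 3 donors did not move the same way in either comparison. Without PecA the first value was -0.17.

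TNC encodes tenascin-C, which binds fibronectin and weakens cell adhesion to it, and it went the other way from FN1. Its levels at 2 dyne/cm2 were 6057, 6774 and 6758 CPM, and those in set 1 were 7772, 7552 and 12529 CPM. All low-shear cultures were below all controls, but in PecC by as little as 1.11-fold, in PecA by 1.28-fold and in PecD by 1.85-fold. The log2 fold change of -0.45 ± 0.20 (SE, n = 3 donors) became -0.09 with set 2 as control and -0.27 without PecD. Cultures at 80 dyne/cm2 had 8679, 9781 and 10395 CPM against 7214, 6657 and 7482 CPM in set 2, without overlap. The 3 donors were higher by 1.20-, 1.47- and 1.39-fold, and the log2 fold change was 0.47 ± 0.17 (SE, n = 3 donors). With set 1 as control this was 0.10.

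Among the SPARC family, SPARC itself, a collagen-binding protein that counters adhesion, was abundant and varied little. It had 2235, 2067 and 3357 CPM at 2 dyne/cm2 and 3055, 2710.0 and 3453 CPM in set 1, so the groups overlapped although each donor was lower at 2 dyne/cm2, by 1.37-, 1.31- and 1.03-fold. In set 2 it had 3677, 2479 and 3573 CPM, and at 80 dyne/cm2 2214, 2956 and 3599.7 CPM, with PecA lower and PecC and PecD slightly higher. The log2 fold changes were -0.28 ± 0.16 and -0.12 ± 0.22 (SE, n = 3 donors), and the second was 0.21 without PecA.

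SPARCL1 is the gene of the SPARC-like protein hevin. At 2 dyne/cm2 the levels were 18.4, 54.6 and 264 CPM, and in set 1 they were 3.60, 11.2 and 8.78 CPM. The groups did not overlap, and the ratios were 5.09 in PecA, 4.87 in PecC and 30.0 in PecD. Its levels at 80 dyne/cm2 were 1.61, 1.63 and 13.1 CPM, against 6.34, 17.1 and 24.9 CPM in set 2. Each donor was lower at 80 dyne/cm2, by 3.95-, 10.5- and 1.90-fold, while the culture of PecD at 80 dyne/cm2 stayed above that of PecA in set 2. The log2 fold changes were 3.19 ± 0.63 and -1.93 ± 0.40 (SE, n = 3 donors). The value at 2 dyne/cm2 was 2.31 without PecD and 2.26 with set 2 as control. The value at 80 dyne/cm2 was -1.35 without PecC, -2.68 without PecD and -1.03 with set 1 as control.

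SPOCK1, which encodes testican-1, a proteoglycan of the SPARC family, was highest in PecA and lowest in PecC in all 4 conditions. Its levels at 2 dyne/cm2 were 93.4, 3.07 and 33.6 CPM and those in set 1 were 14.7, 0.212 and 0.766 CPM in PecA, PecC and PecD. Each donor was higher at 2 dyne/cm2, by 6.35-, 14.5- and 43.8-fold, although the groups overlapped because PecC at 2 dyne/cm2 remained below PecA in set 1. SPOCK1 at 80 dyne/cm2 had 4.32, 0.0591 and 1.56 CPM, against 24.4, 0.156 and 1.54 CPM in set 2. PecA was 5.66-fold lower and PecD was level with its control (ratio 1.02). In PecC only 2 counts stood against 5, a ratio of 0.379 with a 95% exact counting interval of 0.0361 to 2.31. The log2 fold changes were 3.76 ± 0.59 and -1.54 ± 0.52 (SE, n = 3 donors). The value at 2 dyne/cm2 was 2.87 without PecD and 3.13 with set 2 as control, and the value at 80 dyne/cm2 was -0.77 with set 1 as control.

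POSTN encodes periostin, a matricellular protein that binds integrins and takes part in collagen assembly, and its level depended on the pig. At 2 dyne/cm2 it had 1689, 88.3 and 33.0 CPM in PecA, PecC and PecD, and in set 1 it had 520, 53.4 and 3.57 CPM. Every donor was higher at 2 dyne/cm2, by 3.25-, 1.65- and 9.24-fold, but the groups overlapped since PecA in set 1 was above both other donors at 2 dyne/cm2. POSTN at 80 dyne/cm2 had 172, 15.8 and 1.69 CPM against 340, 24.8 and 1.80 CPM in set 2, lower by 1.98-, 1.57- and 1.07-fold. The log2 fold changes were 1.81 ± 0.49 and -0.68 ± 0.17 (SE, n = 3 donors). Without PecD the first value was 1.21 and without PecA the second was -0.39. The second value moved to -1.52 with set 1 as control, and POSTN was lower in set 2 than in set 1 in every donor.

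**Figure D2:**
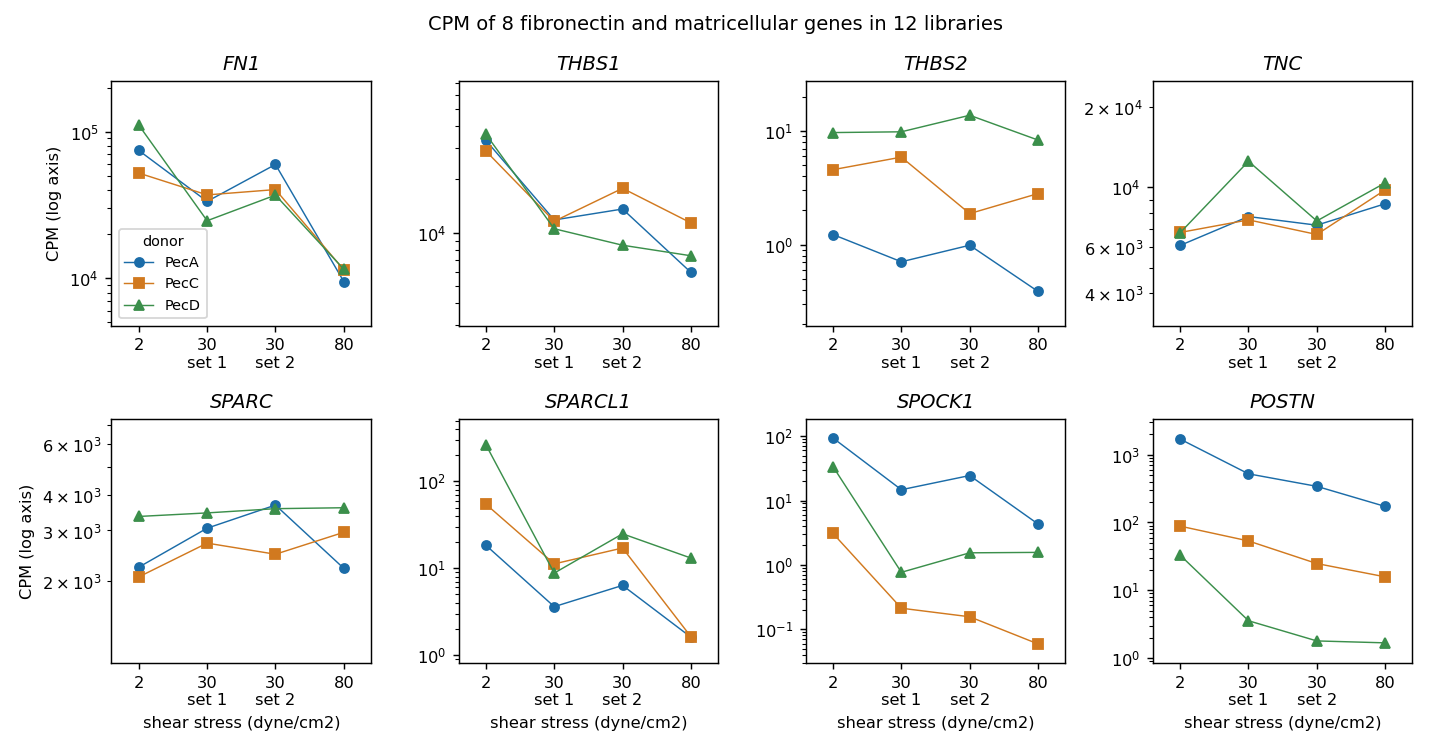
CPM of the 8 genes on log axes in all 12 libraries, in panels by gene, against the condition. Each marker is 1 culture and lines join the cultures of a donor. FN1, THBS1 and POSTN lie highest at 2 dyne/cm2 and lowest at 80 dyne/cm2 in 3 of 3 donors, and for THBS2, SPOCK1 and POSTN the donors keep 1 order in all 4 conditions.

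Among the 8 genes, FN1, THBS1 and POSTN were highest at 2 dyne/cm2, lower in both sets at 30 and lowest at 80 dyne/cm2 in 3 of 3 donors. SPARCL1 and SPOCK1 had this order in 2 of 3 donors and THBS2 in 1 of 3. Of the 11568 genes that passed the filter over 12 libraries, 4.15% had it in all 3 donors, and nothing is read from the difference because the genes were picked on these values. No member had the opposite order in all 3 donors, which 4.6% of genes had, although SPARC had it in 2 donors and TNC in 1. The CPM of the groups did not overlap for FN1, THBS1 and SPARCL1 (higher) and TNC (lower) at 2 dyne/cm2. Of all genes tested there, 17.6% lay wholly higher and 18.9% wholly lower. In the comparison at 80 dyne/cm2 this was so for FN1 (lower) and TNC (higher), beside 7.92% of all genes lower and 6.23% higher.

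In the fit with a donor term, THBS1, SPARCL1 and SPOCK1 passed the thresholds of the study at 2 vs. 30 dyne/cm2, which ask for a 2-fold change and for an adjusted p below 0.05. These are 3 of 8 genes, beside 9.6% of the 11226 genes tested, or 5.06% counting up-regulated genes alone. FN1 and SPARCL1 passed at 80 vs. 30 dyne/cm2, which is 2 of 8 beside 2.2% of 11187 genes, or 1.05% counting down-regulated genes alone. Since both comparisons served to choose the genes, nothing is read from these counts. All 8 genes passed the filter on low counts in both comparisons. Which of them were past the thresholds depended on the fit. Without the donor term, THBS1 was the only member left at 2 dyne/cm2, and at 80 dyne/cm2 there was no gene of the table. Without PecA or without PecC, THBS1 was no longer past them at 2 dyne/cm2, and SPOCK1 did not pass the filter without PecA. Without PecD, FN1 was no longer past them at 80 dyne/cm2. In DESeq2 and in the fit without PecC, POSTN was past them at 2 dyne/cm2 too, and in DESeq2 SPARCL1 was the only member past the thresholds at 80 dyne/cm2. With the other set as control, POSTN joined the 3 at 2 dyne/cm2 and was the only member past the thresholds at 80 dyne/cm2. With no filter on low counts, SPOCK1 joined FN1 and SPARCL1 at 80 dyne/cm2.

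**Figure D3:**
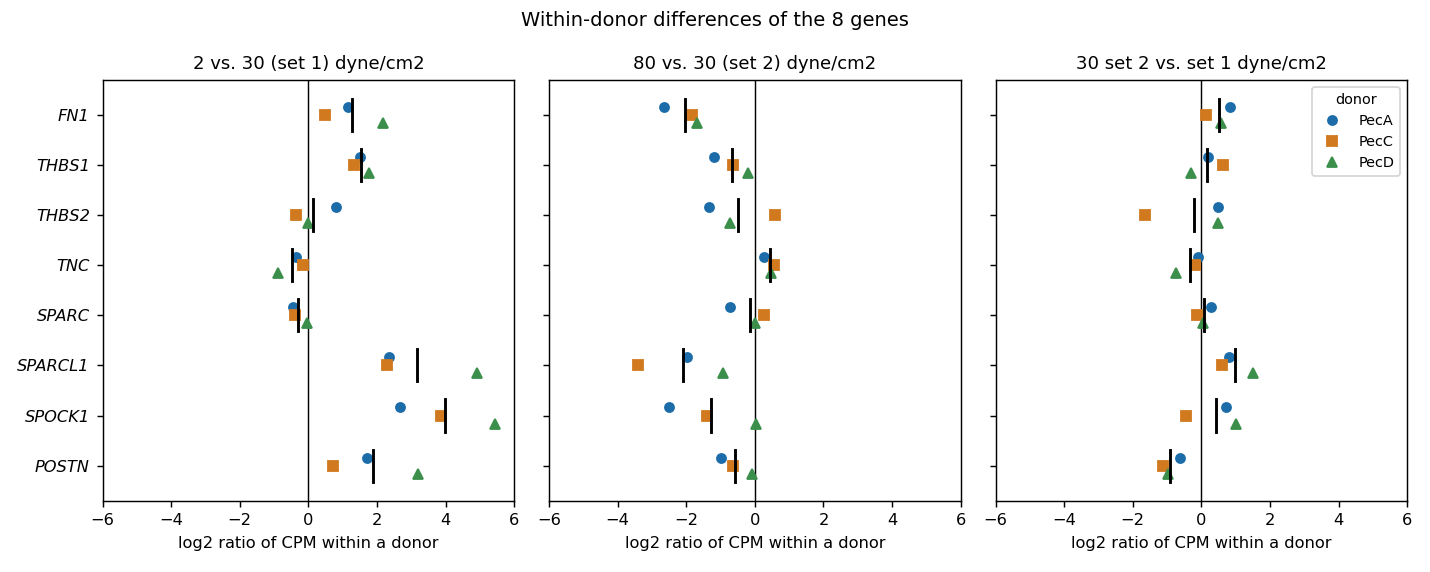
Log2 ratio of CPM within a donor for the 8 genes, in panels for 2 vs. 30 (set 1), 80 vs. 30 (set 2) and set 2 vs. set 1 at 30 dyne/cm2. Markers are donors and the vertical black bars their mean (n = 3). FN1, THBS1, SPARCL1 and POSTN lie to the right of 0 in the first panel and to the left in the second in all 3 donors, TNC the reverse, and the values of PecD reach 5.45 for SPOCK1 and 4.91 for SPARCL1.

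The size of the response differed between the pigs. At 2 dyne/cm2, FN1, THBS1, SPARCL1, SPOCK1 and POSTN were higher in all 3 donors, as were 32.2% of all genes tested, and for all 5 the ratio was largest in PecD. PecD also gave the largest ratio for 50.9% of those 3610 genes. The median absolute log2 ratio over all tested genes was 0.27 in PecA, 0.24 in PecC and 0.38 in PecD. In the comparison at 80 dyne/cm2, FN1, THBS1, SPARCL1 and POSTN were lower in all 3 donors, as were 27.1% of all genes tested, and for these 4 the ratio was closest to 1 in PecD. PecD had the smallest response in 37.2% of those 3032 genes. The median absolute log2 ratio over all tested genes was 0.20, 0.25 and 0.16 in PecA, PecC and PecD. These shares describe 3 pigs with 1 culture per condition, and the differences between pigs in response were not tested.

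The sets at 30 dyne/cm2 are separate cultures of the same donors, and their difference enters the comparisons above. Both sets served as controls when the genes were chosen, so the values between them are also a description for these genes and not a test. In edgeR's fit with a donor term, 0 of the 8 genes passed the thresholds between set 2 and set 1, beside 0.00896% of 11163 genes (1 gene). Nothing is read from that count for the 8 genes. Of all genes, 2146 had an unadjusted p under 0.05, and DESeq2 called 66. POSTN was lower in set 2 in 3 of 3 donors, with a log2 fold change of -0.88 ± 0.12 (SE). SPARCL1 was higher in set 2 in 3 of 3 donors by 0.97 ± 0.18 (SE) on the log2 scale, and FN1 in 3 of 3 donors by 0.50 ± 0.19 (SE). TNC had a log2 fold change of -0.36 and was lower in 3 of 3 donors. SPOCK1 (0.72), THBS1 (0.16), THBS2 (-0.26) and SPARC (0.05) did not have the same sign in all 3 donors.

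The genes were compared within donors when they were chosen, but their levels in all 12 libraries were in view. It cannot be said that differences between donors played no part in the choice, so the count of genes below is a description. Over 12 libraries, with condition in the model, edgeR's quasi-likelihood test found 4 of the 8 genes to differ between the 3 pigs at least 2-fold, beside 12.3% of 11568 genes. POSTN was highest in PecA and lowest in PecD, by 92.4-fold (log2 range 6.53, adjusted p = 1.17e-05), with 172 to 1689 CPM in the cultures of PecA and 1.69 to 33.0 CPM in those of PecD. SPOCK1 was highest in PecA and lowest in PecC, by 61.9-fold (log2 range 5.95, adjusted p = 0.000175). THBS2 was highest in PecD and lowest in PecA, by 13.1-fold (log2 range 3.72, adjusted p = 0.000177), and SPARCL1 likewise by 6.74-fold (log2 range 2.75, adjusted p = 0.00548). The order of donors was the same in all 4 conditions for POSTN, SPOCK1 and THBS2, which was so for 11.1% of all genes, and in 3 of 4 conditions for SPARCL1. The other 4 genes did not pass, with log2 ranges of 0.16 for FN1 (adjusted p = 0.869), 0.35 for THBS1 (0.461), 0.33 for TNC (0.156) and 0.50 for SPARC (0.0827). Each donor is 1 pig with 4 cultures, so these p-values measure the spread between cultures of a pig and say nothing of pigs in general.

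The labelled cell type was checked on marker genes. Of 10 endothelial markers listed, VWF and CLDN5 were not found by symbol and could not be checked. The 8 in the table were present in every library. Their summed level was 4443 to 5637 CPM at 2 dyne/cm2, 6638 to 7774 CPM at 30 dyne/cm2 and 8076 to 8701 CPM at 80 dyne/cm2. The 4 flow-responsive genes KLF2, KLF4, NOS3 and CYP1B1 summed to 274 to 499 CPM at 2 dyne/cm2, against 1268 to 2127 CPM in set 1. All 4 fell in edgeR's test, while 0 of 4 passed at 80 vs. 30 dyne/cm2. There KLF2, KLF4 and NOS3 were higher in 3 of 3 donors at less than 2-fold. Their log2 fold changes were 0.44, 0.315 and 0.74 (adjusted p = 0.0428, 0.109 and 0.026), and CYP1B1 had -0.83 (adjusted p = 0.125). TEK and EMCN fell at 2 dyne/cm2 and EMCN rose at 80 dyne/cm2, and the other endothelial markers did not pass. All 8 were lower in 3 of 3 donors at 2 dyne/cm2. In edgeR's test there, PECAM1 had a log2 fold change of -0.71 (adjusted p = 0.0346), ESAM -0.56 (0.0179) and KDR -1.27 (0.0609). ERG had -0.22, TIE1 -0.18 and CDH5 -0.11 (adjusted p = 0.134, 0.255 and 0.521). Of the smooth muscle markers, DES had no reads, ACTA2, TAGLN and CNN1 stayed under 0.5 CPM, and the summed level of 48.5 to 88.0 CPM came mostly from SMTN. MYOCD, a transcriptional coactivator of smooth muscle genes, had 4.01, 4.59 and 5.07 CPM at 2 dyne/cm2 against 1.75, 0.273 and 0.0590 CPM in set 1 in PecA, PecC and PecD. Its log2 fold change of 3.13 did not pass (adjusted p = 0.0571). LMOD1 went the other way in the same test and was lower in 3 of 3 donors (-0.94, adjusted p = 0.0535). SMTN was level (0.03), and MYH11 reached at most 0.769 CPM. In edgeR's test 0 of 3 smooth muscle markers tested passed at 2 and 0 of 2 at 80 dyne/cm2. Of the leukocyte markers, CD163 had no reads and PTPRC and CD3E at most 2 counts in a library. CD68 fell at 2 dyne/cm2, and neither CD68 nor CD14 passed at 80 dyne/cm2.

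Some fibroblast markers moved in the direction of some of the 8 genes and others did not, and periostin in particular is known from fibroblasts. Of 7 such markers in the table, all had reads, with FAP at up to 0.128 CPM and DCN at up to 4.52 CPM. Their sum was 23.0 to 187 CPM at 2 dyne/cm2, 22.9 to 89.6 in set 1, 20.3 to 219 in set 2 and 11.9 to 112 CPM at 80 dyne/cm2. By donor it was 37.5 to 219 CPM in PecA, 11.9 to 23.0 in PecC and 68.1 to 187 in PecD. COL1A2 gave the largest part of it in PecA and PecD and LUM in PecC. PecC had the lowest sum and the middle level of POSTN, and PecD had a higher sum than PecC and the lowest level of POSTN. Single markers differed in their order of donors. COL1A1 had the order of POSTN at 2 dyne/cm2 (48.9, 2.77 and 2.39 CPM in PecA, PecC and PecD) and in both sets at 30 dyne/cm2. At 80 dyne/cm2 COL1A1 had 2.27, 0.621 and 0.644 CPM. PDGFRA had the order of POSTN except in set 2. In every condition PDGFRB was lowest and LUM highest in PecC. At 2 vs. 30 dyne/cm2, PDGFRA and PDGFRB rose to 3.56 ± 1.12 and 4.22 ± 2.86 CPM (SD, n = 3) in edgeR's test, and the other 3 tested did not pass. COL1A1 and COL1A2 were higher in 3 of 3 donors with log2 fold changes of 1.44 and 0.96 (adjusted p = 0.059 and 0.0325). LUM had -0.11 and was higher in 1 of 3 donors. The 5 markers tested had a median of 1.09. In the comparison at 80 dyne/cm2, 0 of 4 passed, with a median of -0.96. There COL1A1 and COL1A2 were lower in 3 of 3 donors with log2 fold changes of -1.34 (adjusted p = 0.0668) and -1.46 (adjusted p = 0.104). The medians of the 8 genes, which were picked on these comparisons, were 1.41 and -0.66. Between the sets at 30 dyne/cm2, COL1A2 (log2 fold change 1.11) and PDGFRB (0.69) were higher in set 2 in 3 of 3 donors. LUM was lower in set 2 in 3 of 3 donors (-0.64), as was POSTN (-0.88). COL1A1 had -0.34 and PDGFRA 0.18. The part of smooth muscle cells or fibroblasts in the results was not tested, and in bulk RNA fewer cells of a type and less RNA per cell cannot be told apart.

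The genes closest in pattern were found by the root mean square difference of log2 CPM, after each donor's mean was removed, over 12 libraries and 7676 genes with a symbol and at least 10 CPM on average. For FN1 they were FBLN1 (0.34), CADM1 (0.40) and PCDH9 (0.41 on the log2 scale). For THBS1 they were FGFRL1 (0.19), LRP4 (0.21) and C5AR2 (0.22). For SPARCL1 they were NPR3 (0.36), ECM2 (0.38) and ITIH5 (0.40), and for POSTN TNFRSF11B (0.32), SPON1 (0.34) and PDE4B (0.37). SPOCK1 had no gene nearer than 0.46, which was ISM1, followed by IL7 (0.50) and SYNPO2 (0.51). THBS2 was nearest to BCAS3 (0.36), PAPSS2 (0.37) and SLC22A17 (0.37). TNC and SPARC varied too little for this comparison, with SDs of 0.28 and 0.24 over the 12 libraries. The points share libraries and donors, and the differences are given as a description.

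Other matricellular genes were tested from a list of 21, of which 16 passed the filter. The list was drawn up with earlier results of these data known, so its counts beside all genes are a description. At 2 vs. 30 dyne/cm2, 5 of the 16 rose (5.06% of all genes did), 4 fell (4.54%) and 7 did not pass, with a median log2 fold change of 0.26 beside 0.00 for all genes. CCN2, which encodes connective tissue growth factor, rose from 1252 ± 429 to 4872 ± 852 CPM (SD, n = 3), a log2 fold change of 2.02 ± 0.31 (SE, adjusted p = 0.0147). SMOC1, a secreted modular calcium-binding protein related to SPARC, rose by 2.86 ± 0.21 on the log2 scale (adjusted p = 0.00403). TGFBI, a relative of periostin, rose by 2.03 (adjusted p = 0.0119), CCN5 by 1.56 (adjusted p = 0.00988) and FBLN1, the fibronectin-binding fibulin-1, by 1.59 (adjusted p = 0.0296). ECM1 had a log2 fold change of -1.90 (adjusted p = 0.0205), FSTL1, a follistatin-like member of the SPARC family, -1.68 (adjusted p = 0.00878), CCN3 -1.50 (adjusted p = 0.00457) and TNXB, the gene of tenascin-X, -1.31 (adjusted p = 0.00926). FBLN1 did not pass without PecC (adjusted p = 0.0855), and FBLN1 and TGFBI did not pass without the donor term (adjusted p = 0.462 and 0.15). THBS3 (log2 fold change -0.14), SPOCK2 (0.19) and SPOCK3 (-0.76), the relatives of THBS1 and SPOCK1, did not pass.

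At 80 vs. 30 dyne/cm2, 0 of the same 16 genes rose (1.14% of all genes did), 3 fell (1.05%) and 13 did not pass, with a median of -0.22 beside -0.01 for all genes. TNXB and ECM1 were higher in 3 of 3 donors at less than 2-fold, with log2 fold changes of 0.71 (adjusted p = 0.0171) and 0.60 (adjusted p = 0.026). FBLN1 fell from 338 ± 328 to 117 ± 111 CPM (SD, n = 3), a log2 fold change of -1.48 ± 0.09 (SE, adjusted p = 0.00152), and was lower in 3 of 3 donors. SMOC1 fell by 1.32 on the log2 scale (adjusted p = 0.0264). SPOCK3, near 1 CPM, had a log2 fold change of -1.35 (adjusted p = 0.0324) but was higher by CPM in 1 of 3 donors. No call of the 3 remained without the donor term or with set 1 as control. SMOC1 did not pass without PecC or without PecD (adjusted p = 0.107 and 0.129), where SPOCK3 did not pass the filter.

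Receptors and matrix partners of these proteins were tested from a list of 20, of which 17 were in the table and 14 passed the filter. This list too was drawn up with earlier results known, and its counts are a description. At 2 vs. 30 dyne/cm2, 2 rose (5.06% of all genes did), 5 fell (4.54%) and 7 did not pass. The median log2 fold change was -0.61 beside 0.00 for all genes. ITGA5, the fibronectin-specific integrin subunit, fell from 3342 ± 479 to 1431 ± 297 CPM (SD, n = 3), a log2 fold change of -1.22 ± 0.15 (SE, adjusted p = 0.00937). Its partner ITGB1 had -0.44 and did not pass (adjusted p = 0.0506). ITGB3, a subunit of the vitronectin receptor, fell from 149 to 13.9 CPM (log2 fold change -3.47 ± 0.39 SE, adjusted p = 0.00787), while ITGB5 rose by 1.12 ± 0.14 SE (adjusted p = 0.00928), and their shared partner ITGAV had -0.09 (adjusted p = 0.593). TGM2, a transglutaminase that cross-links fibronectin, had a log2 fold change of -3.34 (adjusted p = 0.00811). LTBP1, which anchors latent TGF-β to fibronectin, had -1.71 (adjusted p = 0.0066) and the syndecan SDC1 -1.53 (adjusted p = 0.00537). EFEMP2, the gene of fibulin-4, rose by 1.16 (adjusted p = 0.00849). The thrombospondin receptor CD47 had 0.73 and did not pass (adjusted p = 0.0782). ITGB5 was under 2-fold without PecD (0.97), ITGA5 with set 2 as control (-0.66), and TGM2 and EFEMP2 did not pass without the donor term (adjusted p = 0.116 and 0.0612).

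At 80 vs. 30 dyne/cm2, 2 of these 14 genes rose (1.14% of all genes did), 1 fell (1.05%) and 11 did not pass. The median was 0.18 beside -0.01 for all genes. ITGB3 rose from 99.0 ± 11.4 to 228 ± 51.0 CPM (SD, n = 3), a log2 fold change of 1.22 ± 0.09 (SE, adjusted p = 0.00233). TGM2 rose by 1.33 ± 0.11 SE (adjusted p = 0.00233), and FBLN2, the gene of the fibronectin-binding fibulin-2, had -1.29 ± 0.23 SE (adjusted p = 0.0181). ITGB5 and CD47 were lower in 3 of 3 donors at less than 2-fold, with log2 fold changes of -0.77 (adjusted p = 0.00942) and -0.86 (adjusted p = 0.00635). STAB1, another gene of this list, did not reverse and was lower in 3 of 3 donors under low as well as supra-high WSS. Its log2 fold change was -0.656 under supra-high WSS (adjusted p = 0.0137). Under low WSS it was -0.535 (adjusted p = 0.0213), so both values were under 2-fold. None of the 3 calls remained without the donor term (adjusted p from 0.369 to 0.771) or with set 1 as control (0.296 to 0.452), and FBLN2 was under 2-fold without PecD (-0.96).

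**Figure D4:**
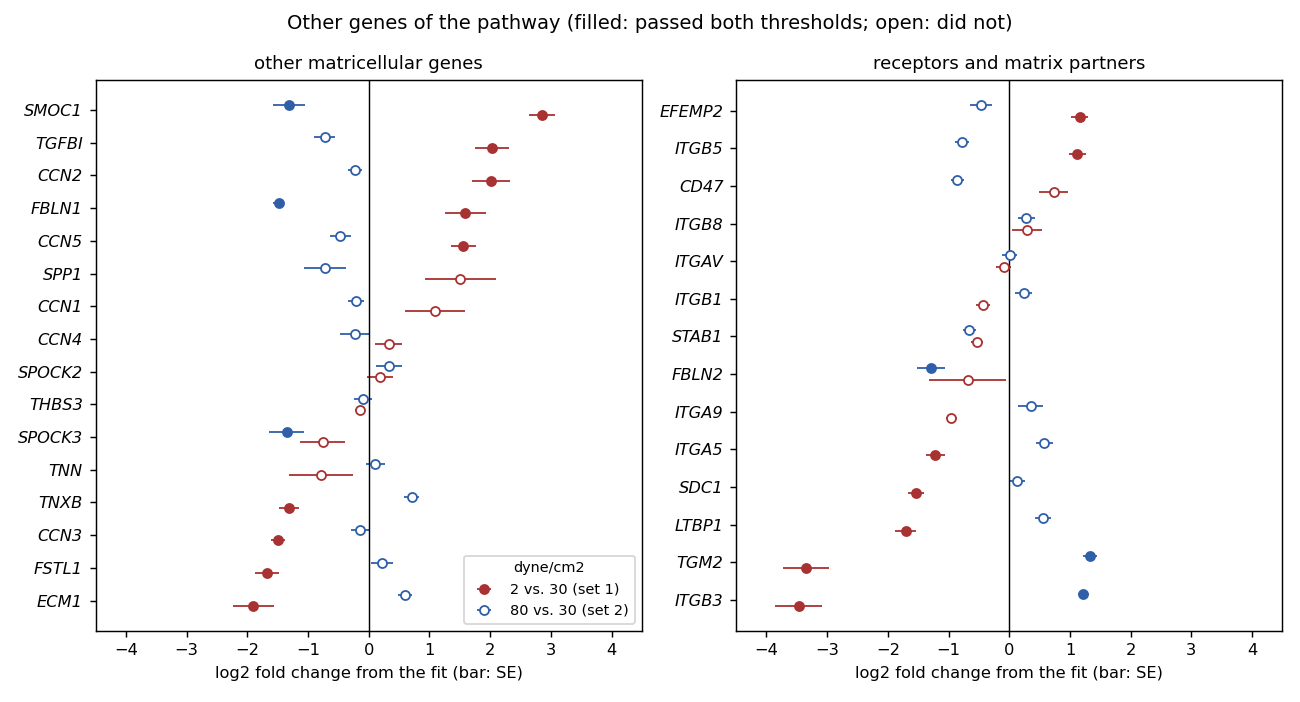
Log2 fold change from the fit with a donor term (bars: SE, n = 3 donors) of 16 other matricellular genes and 14 receptors and matrix partners, at 2 vs. 30 (red) and 80 vs. 30 dyne/cm2 (blue). Filled symbols passed both thresholds. SMOC1 has 2.86 and -1.32, FBLN1 1.59 and -1.48, ITGB3 -3.47 and 1.22, and TGM2 -3.34 and 1.33.

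In the test between donors, 7 of the 16 other matricellular genes and 5 of the 14 receptors and partners differed at least 2-fold, beside the 12.3% of all genes.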

How the data were processed

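RNA of 12 cultures (3 donors, 4 conditions) was sequenced as single-end reads. The authors deposited raw counts per gene for 21153 genes, without normalization. STAR had placed the reads on Sscrofa11.1, reads with more than 1 location were dropped, and featureCounts summed the rest over merged exons; no setting for strand is given in the sources used here, so reads of overlapping antisense genes cannot be told apart. Symbols were matched for 14572 genes. No column was left unused.

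Counts were tested with the quasi-likelihood test of edgeR 4.0.16 in R 4.3.3 with TMM normalization, a donor term and Benjamini-Hochberg adjustment, since the methods compare cultures of the same donor. Same-numbered libraries come from the same donor by the labels, and after removal of condition means their 18 pairs correlated at 0.67 to 0.88 over 11568 genes. Calls needed 2-fold and adjusted p < 0.05. The filter was at least 1 CPM in 3 of 6 libraries (of 12 for the donor test), in place of the study's RPKM filter, since gene lengths were not at hand. CPM use total counts. Alternatives were no donor term, RLE normalization, DESeq2 1.42.0, other filters, FN1 left out of totals, the other control set and each donor left out. On simulated data, 197 of 200 genes given a 4-fold change were found at 2 vs. 30 dyne/cm2 with 8 false calls, and 200 of 200 at 80 vs. 30 dyne/cm2 with 1. Each simulated gene changed alike in all 3 donors and well past the 2-fold threshold. The simulation therefore checks the working of the fit and not calls where donors differ in response. Intervals cover counting error only.

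The members, lists and tests were chosen with earlier results of these data known. List genes are named where they passed both thresholds, at most 10 per list and comparison, and further list genes named with values were added after their values were seen.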

Additional observations from a re-analysis of the deposited data

Results flagged for a closer look

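FN1, THBS1, SPARCL1 and POSTN were higher at 2 vs. 30 dyne/cm2 and lower at 80 vs. 30 dyne/cm2 in 3 of 3 donors. The log2 fold changes were 1.28 and -2.01 for FN1, 1.54 and -0.65 for THBS1, 3.19 and -1.93 for SPARCL1 and 1.81 and -0.68 for POSTN. TNC was lower at 2 and higher at 80 dyne/cm2 in 3 of 3 donors, with -0.45 and 0.47. Every donor moved one way in the first comparison and the opposite way in the second for these 5 genes, which were chosen with the same values known. Of 11042 genes tested in both comparisons, 15.4% were higher at 2 and lower at 80 dyne/cm2 in all 3 donors, and 11.2% were lower at 2 and higher at 80 dyne/cm2. Against set 2, TNC in PecC was not lower at 2 dyne/cm2 (6774 against 6657 CPM). The difference between the 2 comparisons was not tested.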

How the results depend on the processing

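With a donor term 1078 genes were called at 2 vs. 30 dyne/cm2, 246 at 80 vs. 30 and 1 between the sets at 30 dyne/cm2. With no replicate block (donors not paired) these were 635, 0 (929 at an unadjusted p under 0.05, 236 in DESeq2 with the donor term) and 0 (473 at an unadjusted p under 0.05), and the 3 calls among other matricellular genes and the 3 among receptors at 80 dyne/cm2 became 0 and 0. With set 1 as control, 23 genes were called at 80 dyne/cm2. Between the sets, DESeq2 called 66 genes and the fit with no filter 46. Leaving out 1 donor gave 721 to 1000 calls at 2 vs. 30, 132 (without PecC), 136 (without PecD) and 286 at 80 vs. 30, and 0 (without PecA), 62 (without PecC) and 4 (without PecD) between the sets. Among other matricellular genes at 80 dyne/cm2 it gave 1 without PecC or without PecD and 3 without PecA. Of 223 values for members in the 3 comparisons, 5 changed sign, none of them called. Between the sets, THBS1 ranged from -0.073 (without PecC) to 0.41 (without PecD) when a donor was left out, and SPARC from -0.069 (without PecA) to 0.14 (without PecC). THBS2 at 2 vs. 30 dyne/cm2 was -0.05 with no replicate block and -0.17 without PecA, and SPARC at 80 vs. 30 dyne/cm2 was 0.21 without PecA. At 80 dyne/cm2, with set 1 as control, TNC moved to 0.10 and POSTN to -1.52, beyond the spread between donors, and FN1 (-1.52) and SPARCL1 (-1.03) were no longer called. All 56 values for differences between donors kept their side of the thresholds.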
